A study of Mus musculus with 2 samples.

Results

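The Hox genes were examined in RNA from primary mouse fibro-adipogenic progenitors (FAPs), mesenchymal cells that lie between muscle fibres, carry PDGFRA and are able to form adipocytes. The members were all genes whose symbol was Hoxa, Hoxb, Hoxc or Hoxd followed by a paralog number. The rule matched 35 of the 26082 genes in the files, with 11 Hoxa, 8 Hoxb, 9 Hoxc and 7 Hoxd genes. The GENCODE M21 annotation of the mm10 build holds 39 such genes, and Hoxb1, Hoxb13, Hoxd1 and Hoxd12 were not analysed here.

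Both cultures were wild-type FAPs, sorted by the study's methods from muscles of both hind limbs, and both were taken through adipogenic induction with insulin at 10 μg/ml, dexamethasone at 0.25 μM and IBMX at 0.5 mM in 20% serum. The first was labelled as transfected with TGFBR3 overexpressing plasmids and the second with the vector alone, with 1 library each. The study's methods describe young C57BL/6 mice, and the labels do not say how many mice were pooled or how long after induction the RNA was taken. With 1 library per group no test could be made, the difference between cultures has no replicate check, and every interval below covers counting error only. The plasmid's target checked the labels first. Tgfbr3, the type III TGF-β receptor, had an FPKM (fragments scaled by exon length and library total) of 36.87 in the library with the plasmid label and 35.13 in the control, a log2 ratio of (FPKM + 1) of 0.07 with an interval of 0.04 to 0.10 and of −0.06 relative to the median gene. Whether transcripts of the plasmid are counted at the mouse gene is not given in the sources used here. The study measured TGFBR3 by real-time PCR in transfected FAPs, which these counts neither repeat nor replace. Since the level counted at the mouse gene was not raised relative to the median gene, the names TGFBR3-labelled and control follow the labels alone. All ratios are TGFBR3-labelled over control.

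Hox genes encode homeodomain transcription factors that specify position along the head-to-tail axis of the body and, in the limb, from shoulder or hip to digits. In mammals they lie in 4 clusters, and genes in the same position of different clusters form 13 paralog groups. Genes at the anterior end of a cluster, with low paralog numbers, are active toward the head, and the posterior genes, with high numbers, toward the tail and the far end of the limb. Mesenchymal cells of adult tissues keep much of this positional pattern in culture. Posterior Hoxc genes are known for activity in the hindlimb, whereas posterior Hoxa and Hoxd genes act in both limb pairs, the group 11 genes mainly in the forearm and lower leg and the group 13 genes in hands and feet.

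On mm10 the Hoxa genes lie on the minus strand of chr6. The annotated Hoxb genes spanned chr11:96194316-96368256, the Hoxc genes chr15:102921103-103036852 and the Hoxd genes chr2:74668310-74765142. The last 3 clusters lie on the plus strand, so in all 4 clusters the posterior genes lie upstream. MicroRNA genes sit between the Hox genes, and the reference table held 6 of their loci. The mature sequences are shown because each pair shares its seed, bases 2 to 8 in capitals, across clusters, and because those seeds recur in the 3′ UTRs of members described below.
miR-10a-5p, from chr11:96317186-96317208 between Hoxb5 and Hoxb4: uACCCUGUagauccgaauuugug
miR-10b-5p, from chr2:74726074-74726096 within the annotated span of Hoxd3 and Hoxd4: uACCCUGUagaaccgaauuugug
miR-196a-5p, from chr11:96265187-96265208 beyond Hoxb9 and from chr15:102973365-102973386 between Hoxc10 and Hoxc9: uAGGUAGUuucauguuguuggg
miR-196b-5p, from chr6:52230129-52230150 within the annotated span of Hoxa9: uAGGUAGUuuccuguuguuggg
miR-615-3p, from chr15:103014969-103014990 within the annotated span of Hoxc5: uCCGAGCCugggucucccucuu
These are RefSeq sequences on GRCm38.p6, the same assembly as mm10. miR-10a and miR-10b were identical at 22 of 23 positions, and miR-196a and miR-196b at 21 of 22. Mature microRNAs are too short for these libraries and were not measured.

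Both libraries carried a posterior Hox pattern. Of the 35 genes, 32 had more than 3 counts in at least 1 library, 30 had more than 3 in both, and 11 reached an FPKM of 1 in both. Genes at 3 counts or fewer were treated as at the floor of detection. Of those 11 genes, 6 were Hoxc, 3 were Hoxa, 2 were Hoxd and none was Hoxb. Paralog groups 9 to 13 held 80.2% of the summed Hox FPKM in the TGFBR3-labelled library and 78.2% in the control. Groups 4 to 8 held 17.5% and 19.9%, and groups 1 to 3 held 2.26% and 1.89%.

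**Figure D1:**
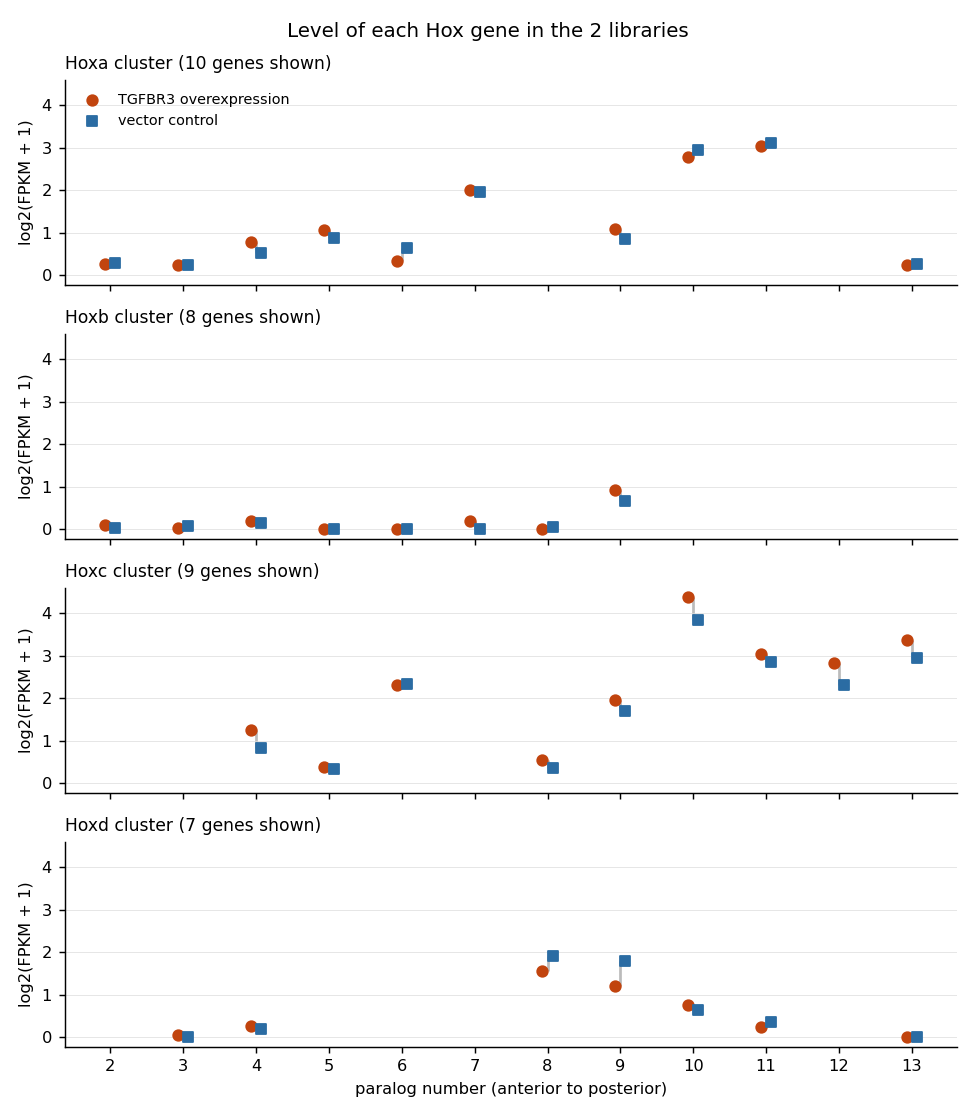
Level of 34 of the 35 Hox genes as log2(FPKM + 1), by cluster and paralog number, in the TGFBR3-labelled library (circles) and the control (squares). Levels peaked at Hoxc10 and at Hoxa11, stayed below an FPKM of 1 throughout Hoxb, and were low for the group 13 genes of Hoxa and Hoxd but not for Hoxc13.

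Hoxc was the leading cluster. Hoxc10, a hindlimb and lumbosacral patterning gene, had the highest FPKM of any Hox gene in both libraries, at 19.75 in the TGFBR3-labelled library and 13.24 in the control, from 2558 and 2335 counts. It has 8.70% of its exon bases in common with Hoxc5, whose reads can be split with it. It alone was 25.2% and 20.0% of the summed Hox FPKM, and it ranked 2465 and 3245 among all genes by FPKM. Hoxc13, known for its role in hair and nail, had an FPKM of 9.34 and 6.67. Hoxc11 had 7.16 and 6.18, and Hoxc12 had 6.14 and 3.99. Hoxc9 was lower, at 2.86 and 2.23. All 5 posterior Hoxc genes thus lay above an FPKM of 2 in both libraries, and each was higher in the TGFBR3-labelled one. Of the central Hoxc genes, Hoxc6 had an FPKM of 3.98 and 4.04, Hoxc4 of 1.40 and 0.79, Hoxc8 of 0.47 and 0.28, and Hoxc5 of 0.31 and 0.26. Level did not follow gene order there, since Hoxc6 stood above both of its neighbours.

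In Hoxa, level peaked at groups 10 and 11. Hoxa11, which with Hoxd11 patterns the lower leg and forearm, had an FPKM of 7.25 in the TGFBR3-labelled library and 7.67 in the control. Hoxa10, which acts in the thigh and hip region, had 5.86 and 6.75. Hoxa13, the gene of the hands and feet, had 0.19 and 0.21, from 32 and 50 counts, so the pattern broke off after group 11. Hoxa7 had an FPKM of 3.02 and 2.91, Hoxa9 of 1.14 and 0.80, and Hoxa5 of 1.08 and 0.83. Hoxa4 had 0.73 and 0.43, Hoxa6 0.26 and 0.55, Hoxa2 0.20 and 0.22, and Hoxa3 0.18 and 0.18.

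Hoxd was expressed weakly and from its middle. Hoxd8 had an FPKM of 1.95 in the TGFBR3-labelled library and 2.78 in the control, and Hoxd9 had 1.30 and 2.46. These were the highest Hoxd levels in each library. Hoxd10 had 0.70 and 0.57, and Hoxd11 had 0.19 and 0.28. Hoxd13, which like Hoxa13 marks the digits, had 0 and 3 counts, both at or under the floor. Within group 11, Hoxd11 was thus far below Hoxa11 and Hoxc11 in both libraries. Hoxd4, at 0.20 and 0.14, and Hoxd3, at 0.04 and 0.01, share 52.3% and 62.3% of their exon bases with other genes on the same strand, so their counts cannot be assigned with certainty.

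Hoxb was close to silent apart from its posterior end. Hoxb9 had an FPKM of 0.90 in the TGFBR3-labelled library and 0.59 in the control, from 158 and 140 counts. It carried 1.15% of the 1.66% of summed Hox FPKM that fell to the cluster in the first library and 0.89% of 1.24% in the second. Hoxb4 had 24 and 25 counts, Hoxb2 21 and 8, and Hoxb3 9 and 24. Hoxb5 and Hoxb6 had 0 counts in both libraries. Hoxb7 had 16 counts in the TGFBR3-labelled library and 0 in the control, at least 7.26-fold higher when the control is set at the floor of 3 counts, while the exact counting interval of the ratio starts at 5.25. Hoxb8 went the other way, with 0 and 10 counts, at least 2.45-fold higher in the control by the same floor, while the counting interval of the ratio ends at 0.607. A count of 0 allows up to 3 counts. A count at or under the floor can also stand for less than 1 whole read. Among short genes with 1 to 3 counts in the TGFBR3-labelled library, the FPKM implied under 0.5 of a read for 45.1% of 1041. Only genes short enough for rounding of the FPKM to matter little were used there, and all Hox genes are longer.

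**Figure D2:**
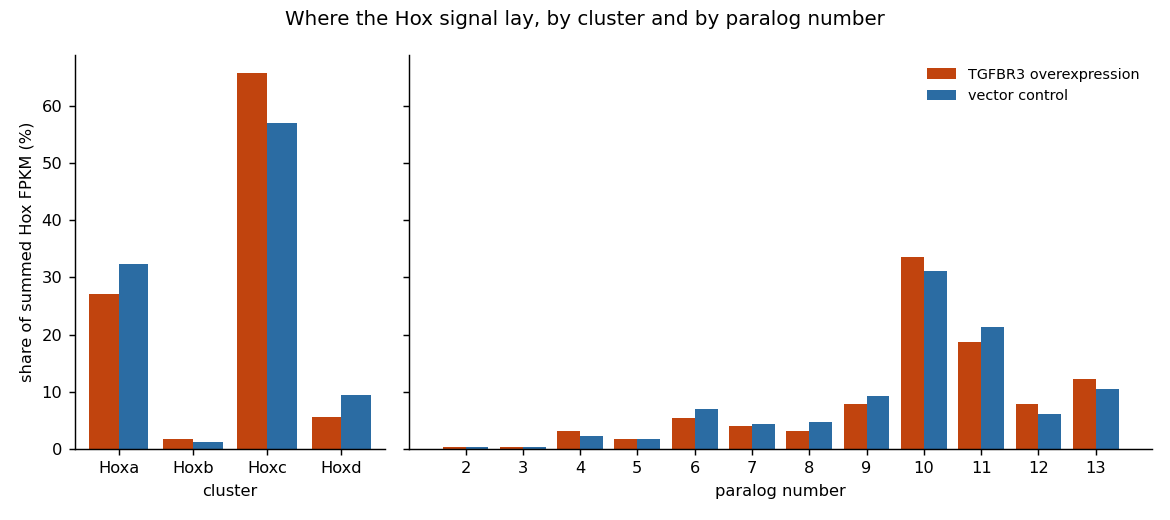
Share of the summed Hox FPKM of each library by cluster (left) and by paralog number from 2 to 13 (right), in percent. Hoxc held 65.7% in the TGFBR3-labelled library and 57.0% in the control, Hoxa 27.0% and 32.3%, Hoxd 5.60% and 9.46%, and Hoxb 1.66% and 1.24%.

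The order of the genes was nearly the same in the 2 libraries. Across the 35 Hox genes, which are not independent replicates and share the same 2 libraries, Spearman's rho of the FPKM was 0.973 and Pearson's r of log2(FPKM + 1) was 0.980. Across all 26082 genes rho was 0.940. The 10 highest Hox genes of the libraries had 9 genes in common.

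The size of the differences was small on the scale chosen for the comparison. On log2 of (FPKM + 1), none of the 32 Hox genes above the floor was at least 2-fold higher and none at least 2-fold lower in the TGFBR3-labelled library, where 1.73% and 0.58% of all 21364 genes above the floor were. The median log2 ratio of (FPKM + 1) was 0.07 for the Hox genes and 0.06 for all genes above the floor. This scale compresses the change of low genes, so the ratio of counts, scaled by the library totals that the FPKM imply, was also taken for the 30 Hox genes above the floor in both libraries. On it the Hox median was 0.32 in log2, against 0.23 over all 17985 genes. For the 13 Hox genes whose mean FPKM reached 1 it was 0.21, against 0.23 over 8352 genes in the same FPKM range. Hoxb2 and Hoxd3 were at least 2-fold higher and Hoxa6 at least 2-fold lower, beside 13.4% and 4.22% of all genes. All 3 had under 50 counts in each library.

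**Figure D3:**
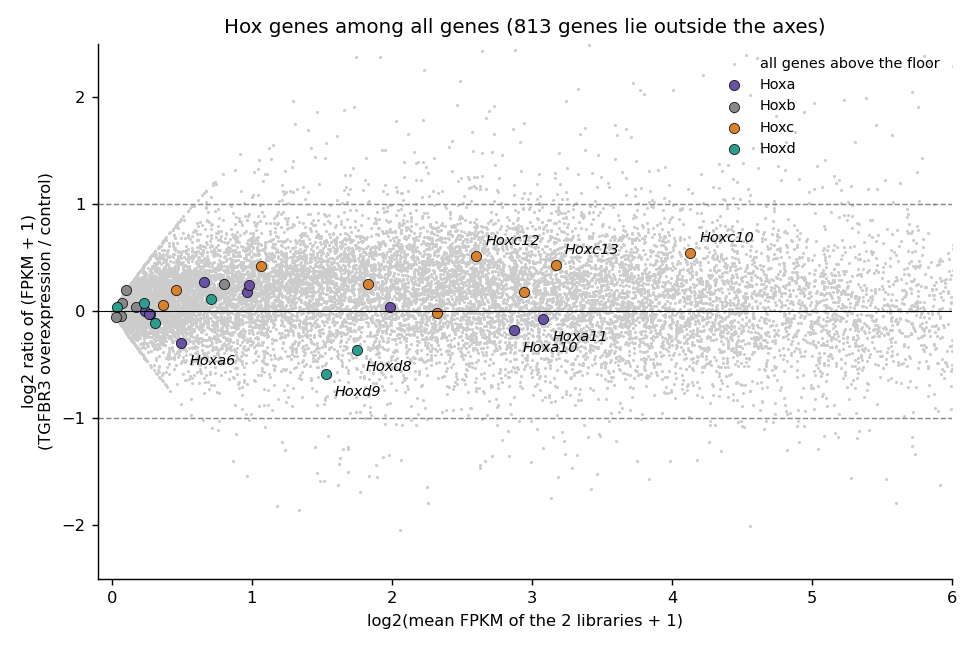
Log2 ratio of (FPKM + 1) against log2 of (mean FPKM + 1) for the 21364 genes above the floor (grey) and 31 of the Hox genes among them (coloured by cluster), of which 8 are named. Dashed lines mark 2-fold, no Hox gene lies beyond them, and 813 genes fall outside the axes. The range of the Hox genes ran from −0.59 for Hoxd9 to 0.54 for Hoxc10.

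By direction, 20 of the 30 genes were higher in the TGFBR3-labelled library on the count scale and 10 were lower. Over all genes 64.6% were higher. The counting interval lay wholly above 0 for 14 Hox genes and wholly below 0 for 5, beside 48.1% and 23.2% of all genes. Relative to the median gene it lay above for 11 and below for 7, beside 6924 and 5657 of all 17985 genes. The clusters differed in direction, which was not tested. On the count scale the median log2 ratio was 0.49 for Hoxc, 0.00 for Hoxa and −0.11 for Hoxd, with 9, 11 and 6 genes. For the 4 Hoxb genes it was 0.50.

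Hoxc was higher along most of its length in the TGFBR3-labelled library. Its summed FPKM was 51.41 in the TGFBR3-labelled library and 37.68 in the control, a ratio of 1.36. Of its 9 genes 8 were higher, beside 64.6% of all genes. The interval lay above 0 for 7 of the 9 and below 0 for none, beside 48.1% and 23.2% of all genes. Relative to the median gene it lay above for 6 and below for 1, beside 6924 and 5657 of all 17985 genes. Hoxc10 had a log2 count ratio of 0.58 with an interval of 0.50 to 0.66. Hoxc12 had 0.62 with an interval of 0.42 to 0.82, Hoxc13 had 0.49 with 0.38 to 0.59, and Hoxc9 had 0.36 with 0.17 to 0.54. Hoxc11 had the smallest ratio of the posterior genes, 0.21 with an interval of 0.09 to 0.34, which is close to the 0.15 of the median gene among those that reached an FPKM of 1 in both. Hoxc4, at the anterior end of the cluster, had the highest ratio in Hoxc, 0.81 with an interval of 0.53 to 1.10. Hoxc8 had 0.74, from 91 and 74 counts. Hoxc6 did not differ beyond counting error, at −0.02 with an interval of −0.17 to 0.13, though this interval lay below the 0.15 of the median gene.

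Hoxd divided within the cluster. Hoxd9 had a log2 count ratio of −0.91 with an interval of −1.16 to −0.66, from 190 counts in the TGFBR3-labelled library and 486 in the control. Hoxd8 had −0.51 with an interval of −0.69 to −0.32, from 365 and 707 counts, and Hoxd11 had −0.59 with −1.09 to −0.11, from 54 and 111. Hoxd11 has 10.8% and Hoxd10 5.73% of exon bases in common with other genes on the same strand. Hoxd10, which lies between Hoxd9 and Hoxd11, had 0.29 with an interval of −0.15 to 0.72, so it did not differ beyond counting error and its value lay on the other side of 0. The summed Hoxd FPKM was 4.38 and 6.25, a ratio of 0.70. Hoxd9 and Hoxd8 had the lowest ratios of the 13 Hox genes whose mean FPKM reached 1.

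Hoxa genes differed in both directions. Its summed FPKM was 21.15 in the TGFBR3-labelled library and 21.31 in the control. The highest genes were lower or level. Hoxa10 had a log2 count ratio of −0.20 with an interval of −0.31 to −0.10, and Hoxa11 had −0.08 with −0.19 to 0.03. Both intervals lay below the 0.15 of the median gene. Hoxa7 was at 0.05, with an interval of −0.11 to 0.21. Hoxa4 had 0.75 with an interval of 0.26 to 1.25, Hoxa9 had 0.52 with 0.32 to 0.71, and Hoxa5 had 0.38 with 0.04 to 0.73. Hoxa6 had −1.05 with an interval of −1.97 to −0.20, from 16 and 45 counts, whereas both of its neighbours Hoxa5 and Hoxa7 were at or above 0. Of the Hoxb genes, Hoxb9 had 0.62 with an interval of 0.28 to 0.96, and Hoxb2 had 1.84 with 0.60 to 3.22.

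**Figure D4:**
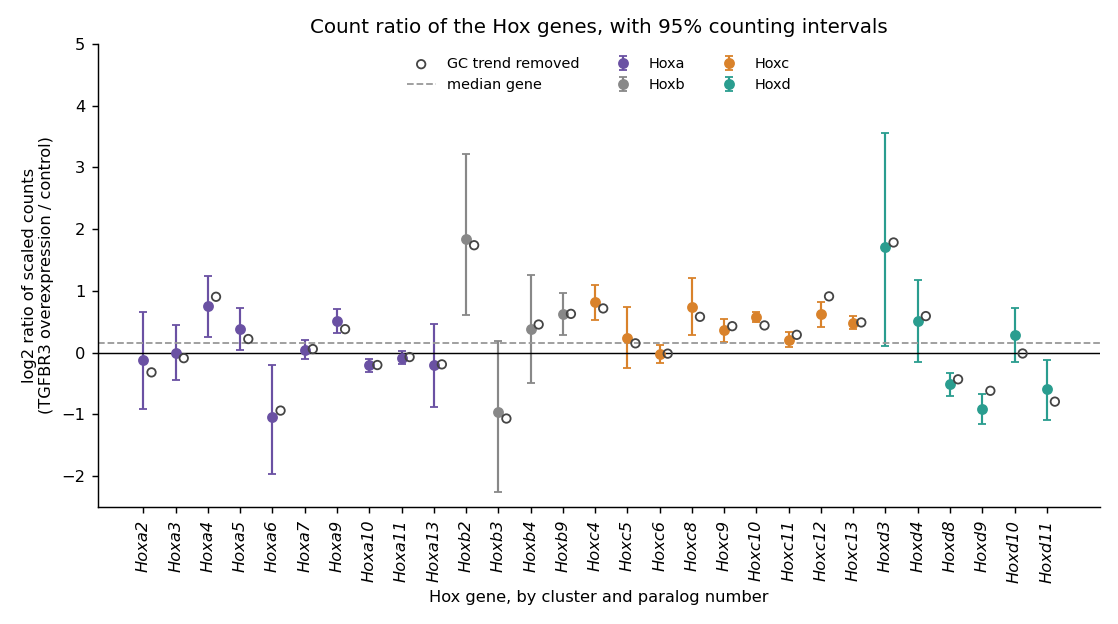
Log2 ratio of scaled counts for 29 of the 30 Hox genes with more than 3 counts in both libraries, in cluster and paralog order, with exact 95% counting intervals. Open circles give the ratio after the trend over GC content was removed, and the dashed line is the median gene at 0.15. The posterior Hoxc genes lie above 0 and Hoxd8, Hoxd9 and Hoxd11 below it.

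The same paralog group could therefore differ in opposite directions in different clusters. In group 9, Hoxa9, Hoxb9 and Hoxc9 were higher in the TGFBR3-labelled library and Hoxd9 was lower. In group 11, Hoxc11 was higher, Hoxd11 lower, and the interval of Hoxa11 included 0. In group 10, Hoxc10 was higher and Hoxa10 lower. Group 10 as a whole held 33.6% of the summed Hox FPKM in the TGFBR3-labelled library and 31.1% in the control.

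The libraries also differed in a way that follows base composition. The median log2 count ratio over 11207 genes whose mean FPKM reached 1 ran from 0.61 in the lowest of 20 bins of exon GC content to −0.29 in the highest. The Hox genes had a median GC content of 53.3%, with a range of 46.5% to 62.3%, against 50.0% over those genes. With this trend removed, Hoxc10 had a log2 count ratio of 0.44, Hoxc12 of 0.91, Hoxc13 of 0.49, Hoxd9 of −0.62 and Hoxd8 of −0.43. By direction, 18 Hox genes were then higher and 12 lower, beside 9520 higher and 8442 lower of all 17985 genes. Hoxd10 changed side, at −0.01, and so did Hoxa3, from 0.002 to −0.09.

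The promoters of the 3 lower Hoxd genes are shown because Hoxd8, Hoxd9 and Hoxd11 differed in the same direction in one cluster. The sequence runs toward the start of the gene and comes from RefSeq on GRCm38.p6, plus strand, without annotated UTR bases. Capitals mark TGATNNAT or its reverse complement, a composite that Hox proteins bind together with Pbx partners.
Hoxd8, chr2:74704365-74704614: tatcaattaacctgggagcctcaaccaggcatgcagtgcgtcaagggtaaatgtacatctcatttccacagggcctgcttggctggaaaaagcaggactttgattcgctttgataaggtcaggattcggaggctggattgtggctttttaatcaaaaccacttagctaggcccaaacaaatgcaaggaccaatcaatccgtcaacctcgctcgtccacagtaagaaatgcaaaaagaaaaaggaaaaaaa
Hoxd9, chr2:74697513-74697726: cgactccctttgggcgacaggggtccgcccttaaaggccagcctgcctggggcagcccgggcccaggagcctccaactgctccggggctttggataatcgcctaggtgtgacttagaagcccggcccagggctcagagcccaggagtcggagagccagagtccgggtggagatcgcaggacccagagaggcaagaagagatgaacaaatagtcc
Hoxd11, chr2:74682073-74682322, before the second of its listed starts: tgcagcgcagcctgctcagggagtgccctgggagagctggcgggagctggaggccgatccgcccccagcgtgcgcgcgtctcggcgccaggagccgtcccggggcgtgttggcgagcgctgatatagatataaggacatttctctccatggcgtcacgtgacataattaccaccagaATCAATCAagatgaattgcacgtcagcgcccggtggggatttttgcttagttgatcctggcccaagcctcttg
The promoter table held 21 starts of 19 members, and among the Hoxc members only Hoxc4 had an entry. The motif lay in the 250 bases before 3 of these 21 starts, those of Hoxa2, Hoxb8 and Hoxd11, which is 14.3%, beside 7.68% of all 32851 promoters. It was not in the windows of Hoxd8 and Hoxd9. The Hox windows had a median of 58.0% GC and 13 CpG pairs, and all promoters 52.4% and 6. Within Hoxd the 3 windows differed, with 44.4% GC for Hoxd8, 65.2% for Hoxd9 and 60.4% for Hoxd11. The window before the first listed start of Hoxd11, chr2:74679308-74679557, had 44.8% GC and no motif.

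The seed match of miR-196, ACTACCT, lay in the longest annotated 3′ UTR of 8 of the 35 members, which is 22.9%, beside 6.56% of 16287 genes with a 3′ UTR. They included Hoxa4, Hoxa5, Hoxa7, Hoxa9, Hoxb6, Hoxb7 and Hoxc8. Hoxa7 held 4 matches and Hoxc8 held 2. The match of miR-10, ACAGGGT, lay in 3 members, Hoxa3 and Hoxb3 among them, which is 8.57% beside 13.9% of all genes. The match of miR-615-3p lay in Hoxb4 alone, which is 2.86% of the members beside 2.76% of all genes. Only exact matches of the seed were searched, so a member without one, such as Hoxb8, may still hold an imperfect site. The sites below run in the sense of the transcript, with the seed match in capitals. They are from the genes with most matches and from Hoxb7, the only Hoxb gene listed at 0 in 1 library with an exact match.
Hoxa7, chr6:52215210-52215231 on the minus strand: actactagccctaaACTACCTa
Hoxc8, chr15:102993733-102993754 on the plus strand: taaatctttaacatACTACCTa
Hoxb7, chr11:96289784-96289805 on the plus strand: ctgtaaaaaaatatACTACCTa
The miR-196 loci lie beside genes of groups 9 and 10, and all 8 matching genes are of group 9 or lower. Most of the 35 members are too, with 6 in groups 1 to 3, 15 in groups 4 to 8 and 4 in group 9. Levels among them ran from 0 counts in both libraries for Hoxb6 to an FPKM of 3.02 and 2.91 for Hoxa7. A match is a description of the letters, and its part in the levels was not tested.

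Noncoding genes of the clusters differed in both directions. The annotation places 43 of them between the outermost Hox genes, 32 were in the files, and 13 had more than 3 counts in both libraries. Hotair, a long noncoding RNA transcribed on the minus strand of chr15:102944062-102947730 between Hoxc12 and Hoxc11, had an FPKM of 0.94 in the TGFBR3-labelled library and 0.24 in the control, from 129 and 45 counts. This was a 3.90-fold difference with an interval of 2.76 to 5.61, a log2 count ratio of 1.96, and 1.38 with the GC trend removed. The intervals of its coding neighbours Hoxc12 and Hoxc11 also lay above 0 and ended below that of Hotair. Hotair is known from human fibroblasts, where it is transcribed in posterior and distal sites. Hotairm1, an antisense gene of the anterior Hoxa cluster, went the other way, with an FPKM of 0.90 and 1.76 from 64 and 169 counts, a log2 count ratio of −0.96 with an interval of −1.39 to −0.53.

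Hoxa11os, antisense to Hoxa11, had an FPKM of 2.19 in the TGFBR3-labelled library and 2.05 in the control, a log2 count ratio of 0.10 with an interval of −0.08 to 0.28, while Hoxa11 itself was at −0.08. Gm53, a long noncoding RNA of the Hoxb cluster, had 155 and 135 counts and a log2 count ratio of 0.64 with an interval of 0.30 to 0.99. Its FPKM was 0.57 and 0.36, below that of Hoxb9 in the same libraries. Gm15050, an antisense gene of the Hoxa cluster, had 24 and 60 counts and −0.88, with an interval of −1.62 to −0.17. Mir196a-1 was listed with 9 and 6 counts, which are reads over its hairpin locus and not the mature microRNA. The libraries were stranded by the labels, but whether the counting used strand is not given in the sources used here, so reads of a gene and of its antisense partner may not have been told apart.

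The nearest protein-coding genes outside the clusters were compared in the same way. Skap2, beyond the anterior end of Hoxa, had an FPKM of 3.19 and 3.23, with a log2 count ratio of −0.02. Smug1, beyond Hoxc4, had 2.15 and 2.1, with 0.04. Calcoco1, on the posterior side of Hoxc, had 12.40 and 13.58, with −0.13. Mtx2, beyond the anterior end of Hoxd, had 9.17 and 9.08, with 0.01. The intervals of Skap2, Smug1 and Mtx2 included 0, and that of Calcoco1 was −0.18 to −0.08. Skap1, beside Hoxb, had 4 and 14 counts and a log2 count ratio of −1.36 with an interval of −3.42 to 0.31. With the GC trend removed the ratios were −0.63 for Skap2, −0.57 for Mtx2, −0.23 for Calcoco1 and −0.05 for Smug1, so those of Skap2 and Mtx2 were close to that of Hoxd9 on the same scale. Evx1, Evx2 and Ttll6 were not analysed here, and of the ParaHox genes Cdx1 was listed at 0 in both.

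Limb patterning factors were read for the limb of origin. Pitx1, the selector of hindlimb identity, had an FPKM of 4.87 in the TGFBR3-labelled library and 5.57 in the control. Tbx4, its hindlimb target, had 2.82 and 2.39, and Tbx5, the forelimb counterpart, had 0.11 and 0.07. Isl1, which acts early in the hindlimb bud, was also low, at 0.11 and 0.14. The log2 count ratio was −0.19 for Pitx1, or 0.10 with the GC trend removed, and 0.24 for Tbx4. Twist2, a mesenchymal transcription factor, was the highest of the list in the TGFBR3-labelled library, at 32.82 and 17.78, and Prrx2 in the control, at 16.13 and 26.00. Of the 20 genes of the list, the counting interval lay above 0 for 8 and below 0 for 6, beside 48.1% and 23.2% of all genes. Relative to the median gene it lay above for 6 and below for 8, beside 6924 and 5657 of all 17985 genes. The median log2 count ratio was −0.02, or 0.12 with the GC trend removed.

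Hox proteins bind DNA with TALE partners of the Pbx, Meis and Pknox families, and all 9 of these were above the floor in both libraries. On the count scale 5 of the 9 were higher in the TGFBR3-labelled library and 4 lower, beside 64.6% higher over all genes. Pbx2 had an FPKM of 7.99 in the TGFBR3-labelled library and 10.03 in the control, and Meis3 of 5.43 and 6.98. Meis2, at 1.21 and 0.78, and Pknox1, at 2.18 and 1.58, went the other way, with log2 count ratios of 0.63 and 0.46. Pknox2 had the lowest ratio of the 9, −0.57. The interval lay above 0 for 4 of the 9 and below 0 for 3, beside the same 48.1% and 23.2%. Their median log2 count ratio was 0.17, or −0.23 with the GC trend removed, against 0.23 over all genes. Pbx2 had a log2 count ratio of −0.33, or −0.25 with the GC trend removed.

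Polycomb proteins hold Hox genes silent outside their domains and Trithorax proteins hold them active. The list of 24 genes held such proteins and also Ctcf, which belongs to neither group. The interval lay above 0 for 17 of the 24 and below 0 for 5, beside 48.1% and 23.2% of all genes. The median log2 count ratio was 0.48, against 0.23 over all genes, and with the GC trend removed it was 0.26, against 0.04. Bmi1, a Polycomb ring finger protein, had an FPKM of 6.65 in the TGFBR3-labelled library and 3.46 in the control. Rnf2, the ubiquitin ligase of the same complex, had 10.16 and 7.09, with a log2 count ratio of 0.52, or −0.09 with the GC trend removed. Ring1, its paralog, had 4.34 and 6.36. Kmt2d, a Trithorax-type histone methyltransferase, had 3.28 and 1.81.

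Retinoic acid induces anterior Hox genes in the embryo, and its pathway held the only gene of the 4 partner and regulator lists that was at least 2-fold lower on the (FPKM + 1) scale. Aldh1a2, an enzyme that makes retinoic acid, had an FPKM of 18.73 in the TGFBR3-labelled library and 56.90 in the control, with a log2 ratio of (FPKM + 1) of −1.55. Its relative Aldh1a1 had 54.31 and 29.56, and Cyp26b1, which degrades retinoic acid, had 4.26 and 2.1. The receptor Rarg had a log2 count ratio of −0.01, with an interval that included 0, and Rxra of −0.04, with an interval of −0.08 to −0.0017. Of the 16 genes 15 were above the floor in both libraries, and their interval lay above 0 for 4 and below 0 for 7, beside 48.1% and 23.2% of all genes. With the GC trend removed 8 were higher and 7 lower, beside 9520 higher and 8442 lower of all 17985 genes.

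The cultures were checked against markers of the cells such a preparation can hold. Pdgfra, which defines FAPs, had an FPKM of 30.48 in the TGFBR3-labelled library and 32.60 in the control, and 8 of 11 FAP markers reached an FPKM of 1 in both. The FAP markers summed to 2139 and 2524, with Col1a1, a collagen chain, at 467 and 870. Ly6a, the highest of the list, was higher in the TGFBR3-labelled library, at 1012.73 and 706.37. Its log2 count ratio was 0.52 with an interval of 0.51 to 0.53. Col3a1, another collagen chain, had 95.76 and 199 and was at least 2-fold lower on the (FPKM + 1) scale. Of the 10 FAP markers above the floor in both libraries the interval lay below 0 for 7 and above 0 for 3. Over all genes the shares were 23.2% below and 48.1% above. Of 9 macrophage markers 6 were above the floor in either library, their summed FPKM was 0.91 and 0.54, and Adgre1, Tyrobp and Fcer1g were at 0 in both. Of 8 muscle cell markers 5 were in the files, with a summed FPKM of 0.70 and 0.70. The 5 endothelial markers summed to 2.33 and 2.02, the 6 pericyte and smooth muscle markers, which include the FAP-expressed Pdgfrb, to 98.99 and 103.92, and the 3 Schwann cell markers in the files to 2.02 and 3.80. The 4 tendon cell markers summed to 66.81 and 108.98, nearly all of it Fmod, and Scx, a tendon transcription factor, had 0.74 and 2.04. The 7 adipocyte markers summed to 57.33 and 94.03, mostly through Cfd at 15.33 and 39.04 and Adipoq at 5.69 and 13.01, both at least 2-fold lower on the (FPKM + 1) scale. Pparg, the regulator of adipocyte formation, went the other way, at 2.19 and 1.61 with a log2 count ratio of 0.44 and an interval of 0.25 to 0.63. Lpl, at 10.02 and 8.86, had a log2 count ratio of 0.18. With the GC trend removed Pparg was at 0.16 and Lpl changed side, at −0.16. The summed levels of the FAP, adipocyte, tendon and Schwann cell lists thus differed between the libraries in the same direction as Hoxd8 and Hoxd9, and their part in the Hox differences was not tested. In bulk RNA, fewer cells of a type and less RNA per cell cannot be told apart.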

How the data were processed

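Poly(A) RNA of 2 FAP cultures, 1 library each, was sequenced as paired 150-nt reads by the labels. The authors deposited a count per gene and an FPKM value rounded to 2 decimals for each library. The labels' processing notes name cutadapt 1.9, HISAT2 2.2.1, StringTie 2.1.6, DESeq2, edgeR and mm10, whereas the paper's methods name STAR and FeatureCounts, and the annotation release is not given in the sources used here. Deposited counts summed to 62321027 in the TGFBR3-labelled library and 83779203 in the control. From counts, FPKM and GENCODE M21 exon lengths, the totals behind the FPKM were 67892189 and 92449923, which returned the FPKM of 98.0% of 11041 and 98.2% of 10603 genes within 1%. M21 held 99.7% of the gene IDs, and 70 had no match.

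The comparison rested on log2((FPKM + 1) / (FPKM + 1)), TGFBR3-labelled over control, so the pseudocount was 1, with 2-fold as threshold, for genes with more than 3 counts in either library. The count ratio, scaled by the totals above, carried exact Clopper-Pearson 95% intervals for genes with more than 3 counts in both. Intervals and the floor of 3 counts cover counting error only, and reads are not independent molecules. No test was run, since a count model needs replicates. Trends over GC content and length were medians in 20 bins. Overlap of exons was read from M21. The script was tested on simulated data. All members were described, with up to 6 genes named per list by level, ratio or limb identity, the noncoding and nearest coding genes of the clusters, and Tgfbr3. Some items are not reported here. The members and lists were chosen with earlier results of these data known. Promoters (250 bases before the start) and microRNAs came from RefSeq on GRCm38.p6, and 3′ UTRs from M21 transcripts. Python 3.11.15, numpy 2.4.6, pandas 2.3.3, scipy 1.17.1 and matplotlib 3.10.9 were used.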

Additional observations from a re-analysis of the deposited data

How the results depend on the processing

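With 1 library per group, depth limits most the genes with few counts, such as Hoxd3, Hoxd13, Hoxa6 and the Hoxb genes other than Hoxb9, and no setting could show how far 2 cultures of 1 kind differ. On the (FPKM + 1) scale the counts at least 2-fold higher and lower were 0 and 0 and the median log2 ratio of the Hox genes 0.07. The lower count stayed at 0 and the higher count became 1 with a pseudocount of 0.1, which gave a median of 0.23. A pseudocount of 0.01 gave counts of 3 and 2 and a median of 0.31. The plain FPKM ratio gave 2 and 2 with a median of 0.32, and the plain count ratio with the GC trend removed, chosen after seeing the data, gave 2 and 1 with a median of 0.25. These settings give more weight to genes with few counts by construction. Centring on the median gene turned the Hox median to -0.061, restriction to genes whose mean FPKM reached 1 gave 0.18, and a 1.5-fold threshold found 1 lower gene, Hoxd9. The counts stayed at 0 with a common sum without the 50 highest genes, counts scaled to a common total, a GC or a length trend removed, centring, the restriction by mean FPKM and a 4-fold threshold, where those apply. Leaving out the 9 of 32 genes with same-strand exon overlap gave a median of 0.08. Of single genes, 7 of 32 changed side on centring, 2 with the GC trend removed and 4 with the length trend removed. No paired analysis was possible because there is 1 sample per group.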
